A study of Mus musculus with 5 samples.

Results

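The axon guidance ligands and receptors analysed here were 62 of the 20224 genes in the deposited count table. They are the protein-coding genes of the semaphorin (*Sema*), plexin (*Plxn*), *Robo*, *Slit*, *Unc5*, Eph receptor (*Epha*, *Ephb*) and ephrin (*Efna*, *Efnb*) families, together with *Nrp1*, *Nrp2*, *Dcc*, *Neo1*, *Ntn1*, *Ntn3*, *Ntn4* and *Ntng1*, that had 10 or more counts summed over the 5 libraries. *Unc5a* to *Unc5d* were counted as members although no digit follows their letter, and without them there were 58 members. The annotation holds 70 protein-coding genes with these names, and 65 of them are in the table. *Sema7a*, *Sema6b* and *Sema5b* had 5, 6 and 7 summed counts and were left out, and the members nearest to the limit were *Epha6* with 10 and *Sema3f* with 16. *Epha2*, *Plxnb3*, *Robo3*, *Robo4* and *Sema3d* were not analysed here.

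Growing axons read guidance proteins that attract or repel their growth cones. Semaphorins act through plexins, and most of the secreted class 3 semaphorins need the neuropilins *Nrp1* and *Nrp2* as co-receptors. Slits act through Robo receptors, netrins through *Dcc*, *Neo1* and the Unc5 proteins, and ephrins, which stay on the cell surface, through Eph receptors on touching cells. In the sympathetic system, *Sema3a* made by target and neighbouring tissue and *Nrp1* on the neuron are known to shape where ganglia form and where their axons grow.

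Sympathetic neurons were sorted from stellate ganglia and thoracic sympathetic chains of E14.5 embryos from non-diabetic pregnancies, with 100 cells per library. Control libraries were 2 in number, labelled replicates 5 and 6, and *Hif1aCKO* libraries 3, labelled replicates 3, 4 and 5. *Hif1aCKO* embryos were Hif1a loxP/loxP and sorted controls Hif1a loxP/+, and embryos of both genotypes carried *Isl1-Cre*, the tdTomatoAi14 reporter that Cre switches on and the Prph-eGFP transgene. The labels also name embryos without *Isl1-Cre* as controls, but cells were sorted for tdTomato together with eGFP. Cre sits in the *Isl1* locus in both genotypes, so recombination occurs in any cell that has used *Isl1*, and controls had lost 1 *Hif1a* copy where Cre had acted. The Cre line came from FVB stock, and the floxed line from a mix of C57BL/6J and C57BL/6N. The sources used here do not say whether a library held cells of 1 embryo or of several, so p-values measure the spread between these libraries only.

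Total counts per library ranged from 8254211 to 9700887. *Hif1a* had 2086 and 1584 normalized counts in control and 2747, 1757.5 and 2135 in *Hif1aCKO* neurons, with overlapping groups. Only exon 2 of *Hif1a* is floxed and counts cover the whole gene, so its level does not check the labels. *Isl1*, whose locus carries Cre, had 12577 and 14019 normalized counts in control against 8634, 7800 and 8722 in *Hif1aCKO* neurons, and the adjusted p-value was 2.1e-04 with DESeq2 and 0.446 with the edgeR test. *Prph*, whose promoter drives eGFP, overlapped between genotypes (4483 to 6541 normalized counts). Levels are given as TPM, counts per kilobase of annotated exon scaled to a sum of 1000000 in each library. All 10 markers of sympathetic neurons were detected, and their summed level was 5829 and 7579 TPM in control and 5334 to 5770 TPM in *Hif1aCKO* libraries. *Hif1aCKO* replicate 3 stood apart for markers of Schwann cell precursors, of which 4 of 6 are in the table. *Fabp7*, *Erbb3* and *Sox10* had 926, 50 and 8 counts there and at most 9, 2 and 1 counts in any other library. The summed level of that list was 289 TPM in this library and 1.96 to 5.11 TPM in the others. In control replicate 6, the chromaffin cell marker *Penk* had 57 counts and the endothelial marker *Kdr* 41, against at most 2 and 12 elsewhere, while *Pecam1*, another endothelial marker, had 0. The summed level of the 2 endothelial markers in the table of 6 listed was 1.22 and 1.47 TPM in control and 0.0418 to 1.02 TPM in *Hif1aCKO* libraries. The lists for chromaffin cells (442 to 1489 TPM over the 5 libraries, 5 of 5 genes in the table) and motor neurons (42.6 to 125 TPM, 2 of 4 genes) were higher in both control libraries than in any *Hif1aCKO* library, and those for erythroid cells (1.21 to 4.55 TPM, 1 of 4 genes) and macrophages (1.95 to 6.84 TPM, 1 of 4 genes) were lower. Most of the chromaffin difference lay in *Chgb*, with 701 and 1104 TPM in control and 99.7, 610 and 139 TPM in *Hif1aCKO* libraries. *Pnmt* was lower as well, while *Chga* and *Slc18a1* overlapped between genotypes. Of 4 chromaffin genes tested, 2 had a higher and 2 a lower mean in *Hif1aCKO* neurons. The motor neuron genes in the table were *Chat* and *Slc18a3*, without *Mnx1* and *Lhx3*. Sensory neuron and mesenchyme markers (3 of 5 and 3 of 6 genes in the table) each averaged under 1 TPM. How far these differences contribute to the values below was not tested. *Xist*, from the inactive X chromosome, was high in control replicate 5 (3974 counts) and in *Hif1aCKO* replicate 3 (4597 counts), with at most 3 counts elsewhere, so each genotype held libraries with and without it. Y-linked *Ddx3y* had 0 and 1 counts in these libraries. It had 1417 counts in control replicate 6 and 1187 and 1153 in *Hif1aCKO* replicates 4 and 5.

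A few guidance genes were high in these neurons and most were low. Over the 5 libraries, 15 members averaged at least 10 TPM, 29 between 1 and 10 TPM, and 18 under 1 TPM. The highest member was *Efna5*, a ligand of EphA receptors that is tethered to the membrane by a lipid anchor, at 207 ± 29.9 TPM (SD, n = 5 libraries), a level above that of 94.0% of the 15032 genes tested. *Nrp1* followed with 68.4 ± 23.6 TPM, and *Slit3*, a secreted repellent, with 64.0 ± 12.7 TPM. Then came *Plxna4* with 36.0 ± 9.11 TPM and *Nrp2* with 32.5 ± 4.74 TPM, levels that lay within 1 SD of each other. The level of *Nrp1* depended on the length assigned to it, and was 139.5 TPM with the length of its longest annotated transcript in place of all its exons, whereas *Efna5* was then at 157 TPM.

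**Figure D1:**
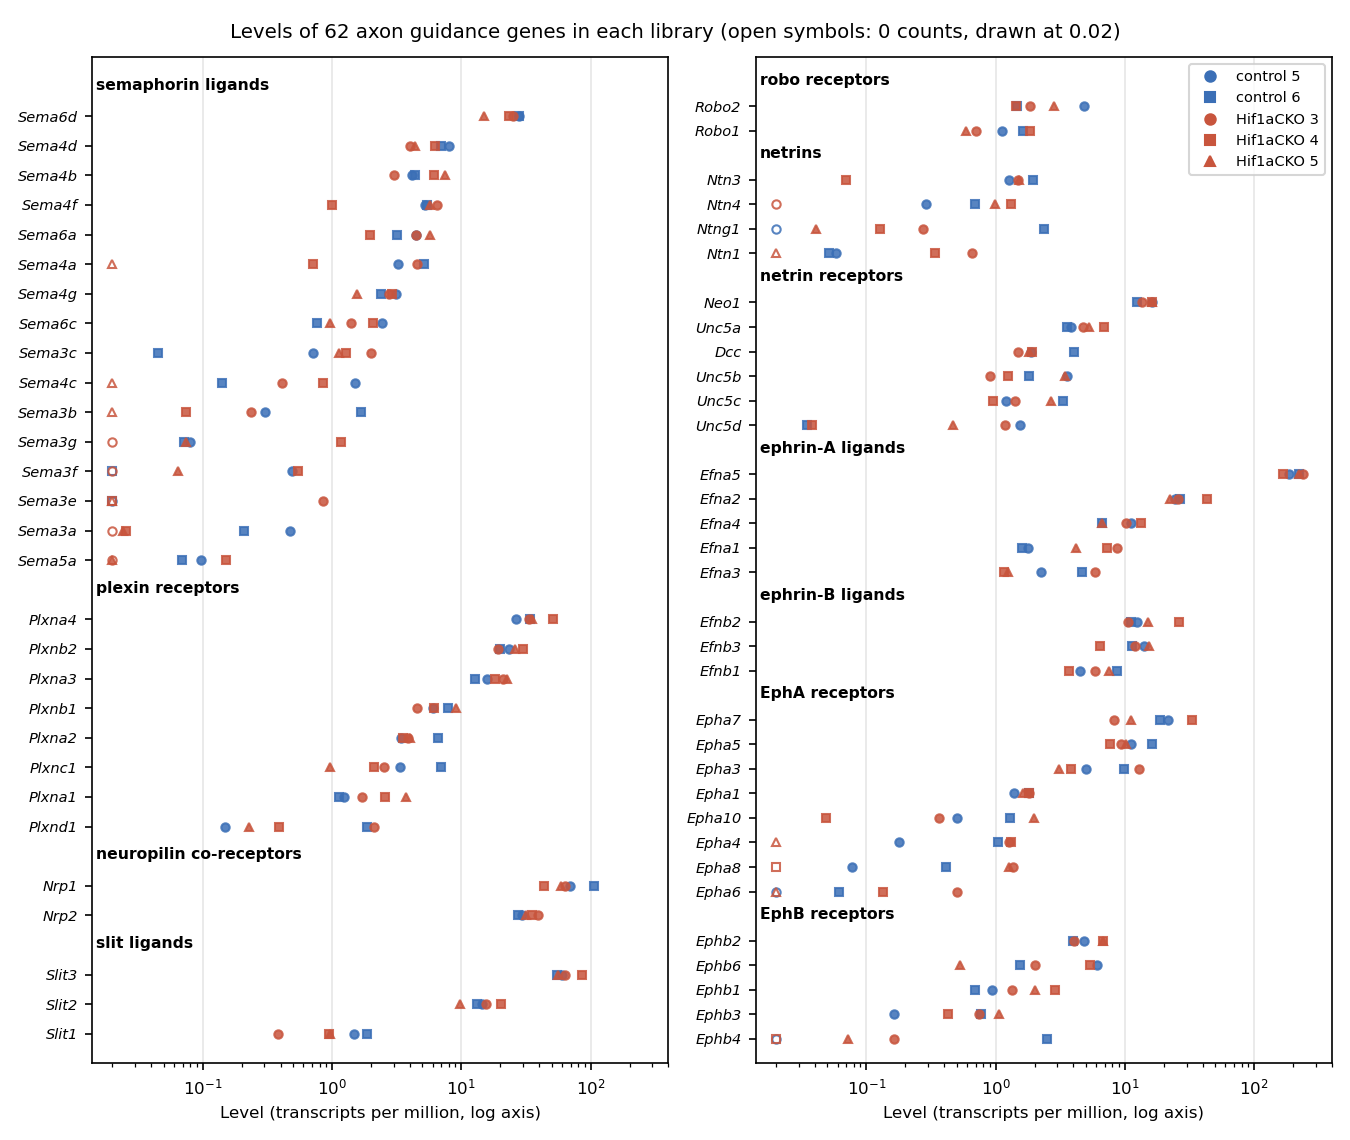
Level of each of the 62 members, in TPM on a log axis, in the 5 libraries (blue, control; red, Hif1aCKO; shape, replicate), ordered by mean level within each role. Efna5, Nrp1 and Slit3 lie highest, and members that average under 1 TPM spread most widely between libraries, with 14 of these 18 at 0 counts in at least 1 library.

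A single family member carried most of the level in several roles. *Efna5* made up 81.9% of the mean ephrin-A level, *Slit3* 80.2% of the slit level, *Nrp1* 67.8% of the neuropilin level and *Neo1*, a netrin and RGM receptor, 55.7% of the netrin receptor level. The slit share depended on the length used, since annotated exons sum to 25433 bases in *Slit2* and 6067 in *Slit3*. With the longest annotated transcript as length, *Slit3* was at 56.5 TPM and *Slit2* at 28.5 TPM. Counts of *Slit3* were 0.972 to 1.37 times those of *Slit2* over the 5 libraries. Among plexins, *Plxna4* was the highest with 37.9%, and among semaphorins *Sema6d*, a transmembrane ligand, with 44.9%. Summed Robo level was 2.55 to 5.91 TPM over the 5 libraries and summed slit level 66.8 to 107 TPM, so transcripts of the ligands exceeded those of their receptors in every library. Summed netrin level was low as well, at 1.63 to 5.09 TPM, while netrin receptors summed to 23.2 to 29.9 TPM. For ephrin-A ligands the sums were 224 to 288 TPM, and for EphA receptors 29.4 to 49.3 TPM.

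Low members were uneven between libraries. The normalized count of the highest library was a median of 1.89 times that of the lowest for the 15 members of at least 10 TPM, and 3.26 times for those members of 1 to 10 TPM that had counts in every library. Some members were almost confined to 1 library. *Sema3e*, a ligand of plexin-D1, had 21 counts in *Hif1aCKO* replicate 3 and 0 in the other libraries, and that library also held most of the Schwann cell precursor signal. *Ephb4*, a receptor known from veins, had 36 counts and *Ntng1*, a netrin relative on the cell surface, 61 counts in control replicate 6, against at most 2 and 6 elsewhere. In the same library *Sema3b* had 25 counts, against at most 4 elsewhere. *Sema3g* had 15 counts in *Hif1aCKO* replicate 4 and at most 1 in any other library.

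Between *Hif1aCKO* and control neurons, no guidance gene passed the thresholds. Genotypes were compared over all genes with edgeR's quasi-likelihood test. To be called, a gene had to have a p-value under 0.05 after Benjamini-Hochberg adjustment, lie beyond 0.3 or -0.3 on the log2 scale, and reach a mean of 50 normalized counts. Of the 62 members, 52 passed the filter on low counts and 10 did not, and 0 of these 52 were called, as were 0% of all 15032 genes. Adjusted p-values of the members lay between 0.621 and 0.988 in edgeR's quasi-likelihood test. DESeq2, the tool of the study, also called 0 members of the 54 it gave an adjusted p-value, with 0.388% of 15477 genes called, and its smallest adjusted p-value among members was 0.202 for *Nrp1*. At an unadjusted p-value under 0.05 in the edgeR test there were 5 members (9.62%), where the share over all genes was 7.67%. Of these, 2 were higher and 3 lower in *Hif1aCKO* neurons, against 3.83% and 3.85% of all genes. DESeq2 gave 6 of 62 members (9.68%), these 5 and *Sema3a*, an unadjusted p-value under 0.05, where the share over the 20171 genes with a p-value was 7.06%. Groups of libraries did not overlap for 13 members (25%), and for 25.7% of all genes, so members separated by genotype about as often as genes in general. They were higher in *Hif1aCKO* neurons for 7 members and lower for 6, where each direction held 12.9% of all genes. Of the 52 members, 24 had a higher and 28 a lower mean in *Hif1aCKO* neurons, and the median log2 fold change was -0.14 against 0.012 over all genes. The sign of this median was not stable, since dropping a single library gave values from -0.032 to 0.15, over the 49 to 58 members then tested.

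**Figure D2:**
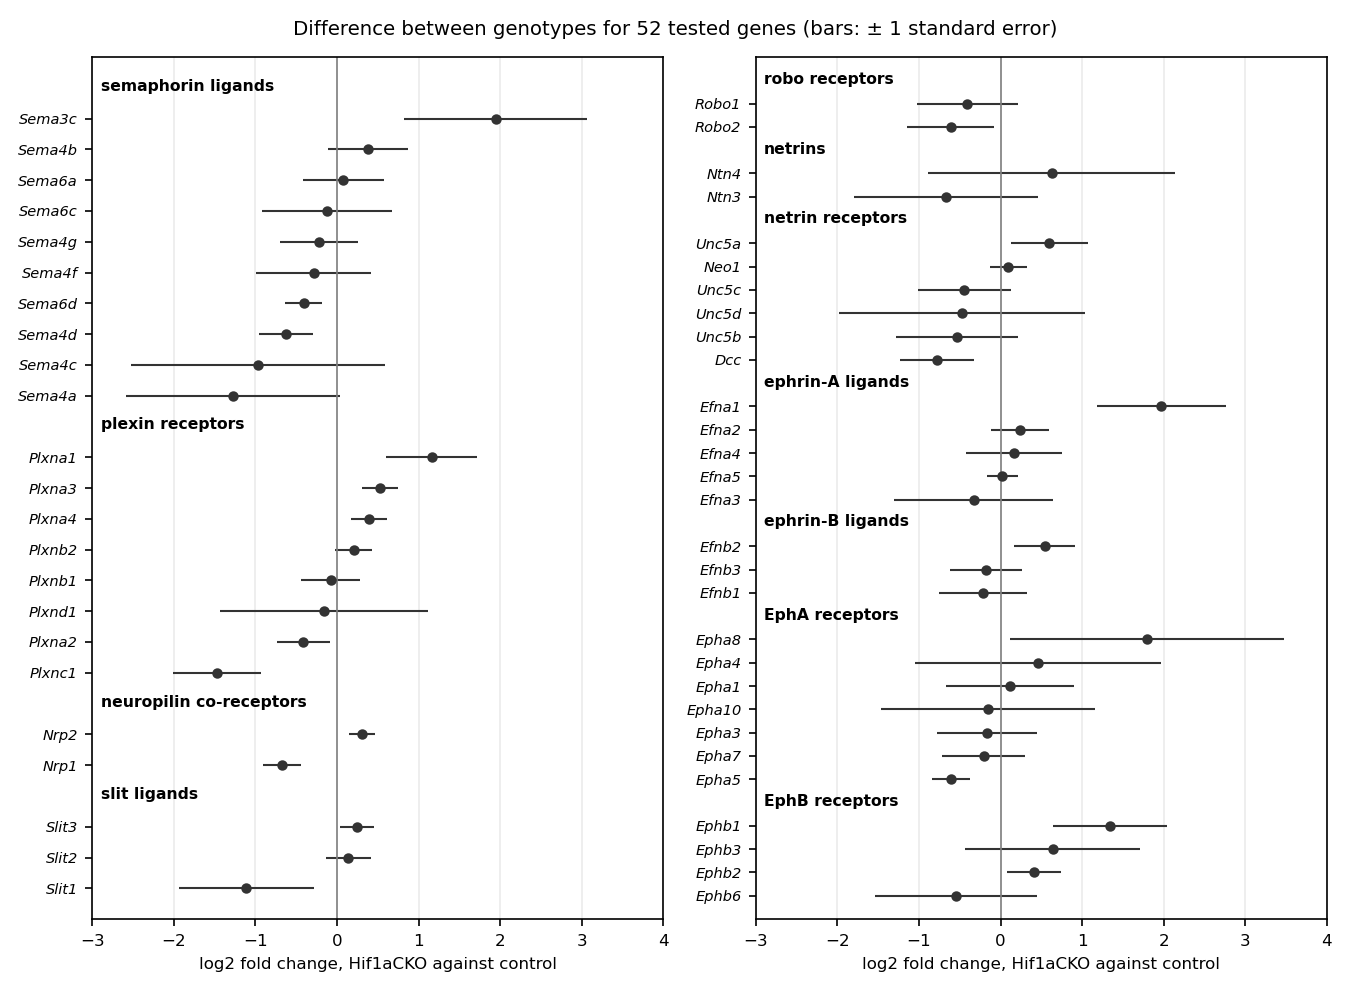
Log2 fold change of Hif1aCKO against control for the 52 members tested, with bars of ± 1 standard error from the edgeR fit, by role. Estimates lie on each side of 0 in most roles, from -1.47 for Plxnc1 to 1.97 for Efna1, and no member passed the thresholds.

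The *Sema3a* receptor complex held the smallest p-value among members. *Nrp1* (ENSMUSG00000025810, chromosome 8 of GRCm38, 128358604 to 128503363), the *Sema3a*-binding co-receptor, had 1947 and 3009 normalized counts in control replicates 5 and 6. In *Hif1aCKO* replicates 3, 4 and 5 it had 1765, 1201 and 1680. Every *Hif1aCKO* library lay below both control libraries, although *Hif1aCKO* replicate 3 came close to control replicate 5. Its log2 fold change was -0.68 (standard error 0.23, unadjusted p = 0.0188, adjusted p = 0.621 in edgeR's quasi-likelihood test), and it was -0.34 without control replicate 6. Fewer cells that use a gene and less RNA of it per cell cannot be told apart in these bulk libraries.

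*Nrp2* (ENSMUSG00000025969, chromosome 1, 62703285 to 62818695), the co-receptor that favours *Sema3f*, had 997 and 933 normalized counts in control and 1321, 1179 and 1084 in *Hif1aCKO* neurons. Here each *Hif1aCKO* library was above both controls, the opposite side from *Nrp1*. The log2 fold change was 0.31 (standard error 0.16, unadjusted p = 0.0932, adjusted p = 0.699 in edgeR's quasi-likelihood test). Within a library, which removes any effect of depth, *Nrp1* had 1.95 and 3.22 counts for each count of *Nrp2* in control and 1.34, 1.02 and 1.55 in *Hif1aCKO* neurons. The ratio of *Nrp1* to *Plxna4* counts was 1.83 and 2.18 in control and 1.32, 0.59 and 1.17 in *Hif1aCKO* neurons. Groups did not overlap for either ratio, and neither was tested. The first had to separate, since *Nrp1* was lower and *Nrp2* higher in every *Hif1aCKO* library. The second reuses the *Nrp1* counts, so it is not independent of them. Of 6 such ratios computed, those of *Plxna3* to *Plxna4* (0.207 to 0.339 in control and 0.20 to 0.36 in *Hif1aCKO* libraries), *Slit3* to *Slit2* (0.987 to 1.0 and 0.972 to 1.37) and *Slit3* to *Robo2* (4.45 to 13.5 and 7.06 to 21.4) overlapped, and that of *Efna5* to *Epha5* is given with the ephrins.

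The A-type plexins are the signalling subunits that pair with neuropilins. *Plxna3* (ENSMUSG00000031398, X chromosome, 74329066 to 74344689) had 360 and 287 normalized counts in control and 473, 408 and 519 in *Hif1aCKO* neurons, with every *Hif1aCKO* library above both controls. Its log2 fold change was 0.53 (standard error 0.22, unadjusted p = 0.0439, adjusted p = 0.637 in edgeR's quasi-likelihood test). Libraries high in *Xist* had 360 in control and 473 in *Hif1aCKO*. The others had 287 in control and 408 and 519 in *Hif1aCKO*. The direction had to be the same within each kind of library, since every *Hif1aCKO* library lay above both controls. What part sex had in this difference was not tested. *Plxna4* had 1064.5 and 1382 normalized counts in control and 1337, 2037 and 1439 in *Hif1aCKO* neurons, and its groups overlapped (log2 fold change 0.39, standard error 0.22). *Plxna1*, which is lower than these, had 32.3 and 29.7 against 44.0, 65.9 and 98.3 normalized counts, without overlap (log2 fold change 1.16, standard error 0.55). This gene overlaps the antisense gene *Gm26811* over 10.7% of its exonic length, and no source used here says whether strand was used in counting. *Plxna2* went the other way, with a log2 difference of -0.41 (standard error 0.33) that became 0.14 without control replicate 6.

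*Sema3a* itself (ENSMUSG00000028883, chromosome 5, 13125414 to 13602565) was barely detected in the neurons. Control replicates 5 and 6 held 18 and 9 counts of it, against 0, 1 and 1 in the *Hif1aCKO* libraries, and did not pass the filter on low counts. Summed over libraries and set against their sizes, the control level was 19.6 times the *Hif1aCKO* level, with an exact 95% interval of 4.93 to 170.0 that covers counting error only, from 27 and 2 counts. *Sema3c*, another class 3 semaphorin, had 14 and 1 counts in control and 38, 26 and 24 in *Hif1aCKO* libraries, or 1.95 on the log2 scale (standard error 1.12). The other class 3 members, *Sema3b*, *Sema3e*, *Sema3f* and *Sema3g*, were not tested and had between 0 and 25 counts per library.

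**Figure D3:**
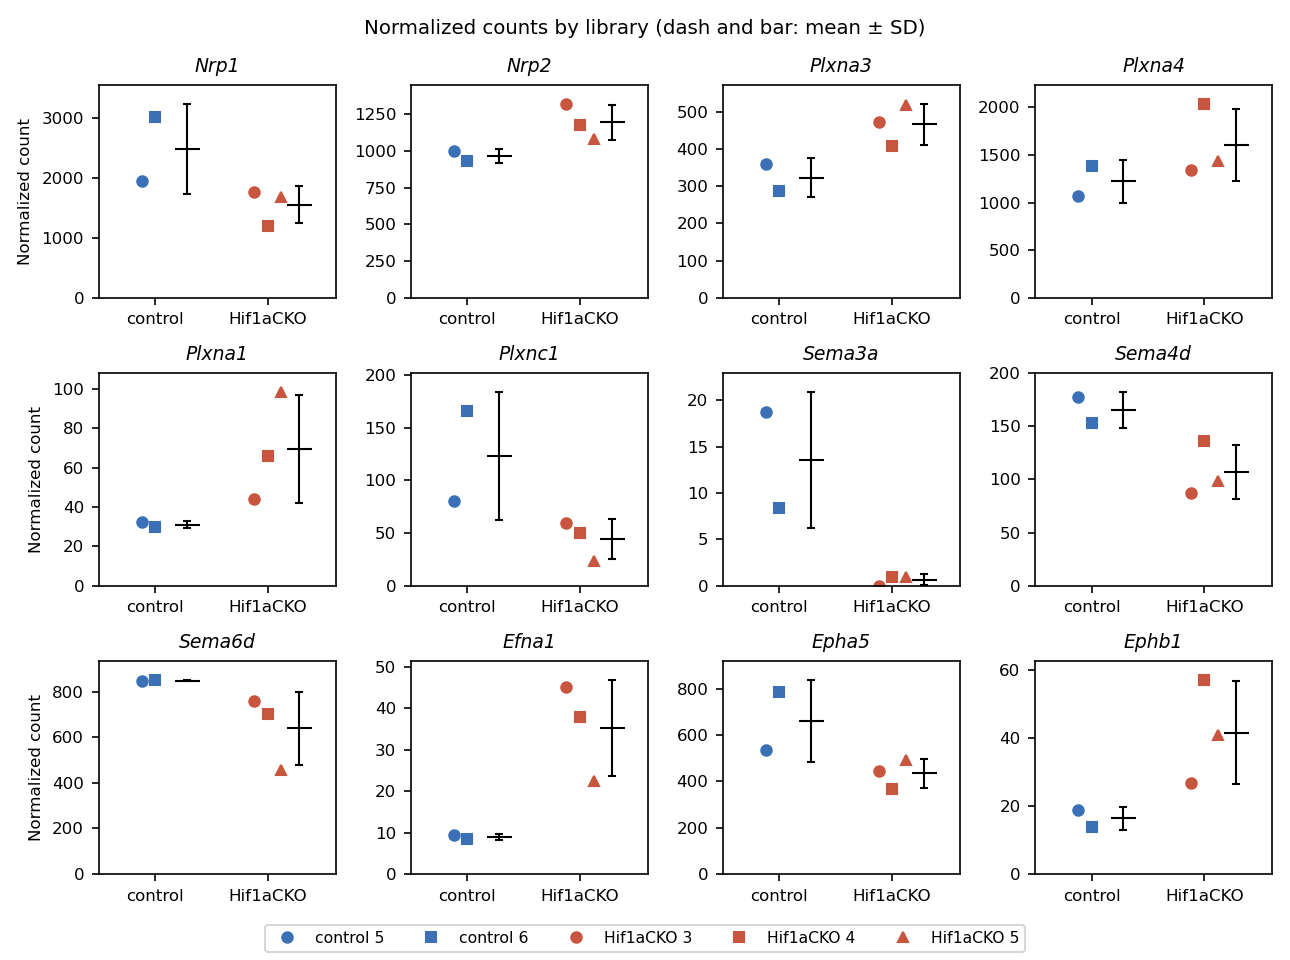
Normalized counts of 12 members in each library (blue, control; red, Hif1aCKO; shape, replicate), with the mean ± SD of each genotype as a dash and bar, on axes that start at 0. Nrp1, Plxnc1, Sema3a, Sema4d, Sema6d and Epha5 lie lower and Nrp2, Plxna3, Plxna1, Efna1 and Ephb1 higher in every Hif1aCKO library than in both controls, while Plxna4 overlaps.

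The remaining plexins and semaphorins differed in both directions. *Plxnc1* (ENSMUSG00000074785, chromosome 10, 94790866 to 94944835), the receptor of *Sema7a*, had 80.2 and 166 normalized counts in control and 60.05, 49.9 and 23.4 in *Hif1aCKO* neurons. No *Hif1aCKO* library reached a control library, and the log2 fold change of -1.47 (standard error 0.54, unadjusted p = 0.0258, adjusted p = 0.621 in edgeR's quasi-likelihood test) was the lowest among members tested. Without control replicate 6 it was -0.86. Its ligand *Sema7a* had 5 counts over all libraries.

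*Sema6d* had 848 and 851 normalized counts in control and 758, 703 and 458 in *Hif1aCKO* neurons, and its log2 fold change was -0.41 (standard error 0.23). *Sema4d*, a ligand of B-type plexins, had 177 and 153 against 86.9, 136 and 98.3, with a log2 fold change of -0.62 (standard error 0.33). In both genes the genotypes did not overlap, and the unadjusted p-values in the edgeR test were 0.113 and 0.0984. Summed over the 16 semaphorin members, the level was 62.4 and 58.4 TPM in control and 55.4, 48.7 and 42.0 TPM in *Hif1aCKO* libraries. Of the 11 roles, only this one had a summed level that did not overlap between genotypes. That share is no higher than the 25.7% of all single genes that did not overlap. *Sema6d* made up 44.9% of the mean semaphorin level. Of 10 semaphorins tested, 3 had a higher and 7 a lower mean in *Hif1aCKO* neurons, and of 8 plexins 4 and 4. *Plxnb2* and *Plxnb1*, the receptors of *Sema4d*, had log2 fold changes of 0.20 (standard error 0.23) and -0.077 (standard error 0.36).

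**Figure D4:**
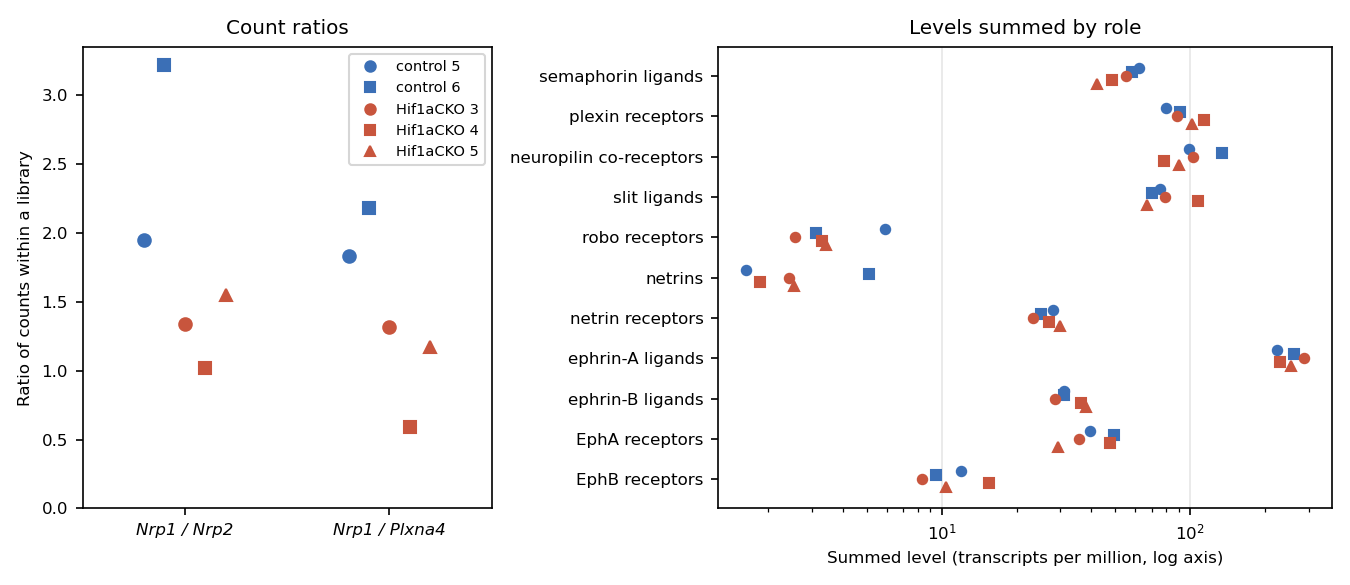
Left, counts of Nrp1 divided by counts of Nrp2 or of Plxna4 within each library, on an axis that starts at 0; right, levels summed over the members of each role, in TPM on a log axis (blue, control; red, Hif1aCKO; shape, replicate). Each ratio is higher in both control libraries than in any Hif1aCKO library, and among the sums only that of the semaphorins separates the genotypes.

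HIF-1 is known to bind the core letters ACGTG or GCGTG of hypoxia response elements. Stretches before the RefSeq start are shown for both neuropilins and for *Plxnc1*, because each holds these letters. Sequences are RefSeq promoters on GRCm38.p6, 5′ to 3′ on the strand of the gene, from 250 to 51 bases before the RefSeq start, and capitals mark ACGTG or GCGTG on either strand, so that CACGC is GCGTG read from the other strand.
Nrp1, chr8:128358823-128359022, plus strand: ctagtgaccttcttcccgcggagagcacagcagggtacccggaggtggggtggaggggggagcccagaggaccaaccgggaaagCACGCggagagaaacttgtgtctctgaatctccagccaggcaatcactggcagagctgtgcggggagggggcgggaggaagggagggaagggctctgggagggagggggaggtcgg
Nrp2, chr1:62703067-62703266, plus strand: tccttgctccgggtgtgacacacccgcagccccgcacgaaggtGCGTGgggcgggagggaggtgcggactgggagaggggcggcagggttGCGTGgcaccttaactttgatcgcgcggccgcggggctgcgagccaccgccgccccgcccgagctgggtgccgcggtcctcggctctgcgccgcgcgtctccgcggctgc
Plxnc1, chr10:94944896-94945095, minus strand: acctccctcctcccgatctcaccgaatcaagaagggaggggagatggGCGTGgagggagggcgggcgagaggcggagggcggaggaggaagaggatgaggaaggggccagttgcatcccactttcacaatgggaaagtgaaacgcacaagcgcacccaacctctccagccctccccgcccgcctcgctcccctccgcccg
The match in *Nrp1* starts 166 bases before the RefSeq start, those in *Nrp2* 207 and 160 bases and that in *Plxnc1* 203 bases before it. For *Nrp1* that start is base 128359073, downstream of the outer gene limit given above, which belongs to a retained-intron transcript in GENCODE. The *Nrp1* stretch thus begins 219 bases inside that limit and 461 bases before the start of the coding transcript, and it overlaps 0 annotated exons. These 3 genes differed in direction, with *Nrp1* and *Plxnc1* lower and *Nrp2* higher in the *Hif1aCKO* libraries. Of the 62 members, 52 had a promoter sequence, and in 26 of them (50%) 1 or more of the 250-base windows held a match. The share was 41.5% over all 27025 genes with a sequence and 61.5% over the 10322 of these that were tested. *Ephb1*, *Sema4d* and *Sema6d* also had a match in these windows, and *Efna1*, *Epha5* and *Plxna3* had none. A match describes the letters only, and it is not evidence of binding.

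Summed levels of ephrins and of their receptors overlapped between genotypes, while the single members *Efna1*, *Epha5* and *Ephb1* did not. *Efna5*, the highest member, had 2140.5 and 2592 normalized counts in control and 2719, 1896 and 2598 in *Hif1aCKO* neurons, and the groups overlapped widely (log2 fold change 0.023, standard error 0.19). *Efna1* (ENSMUSG00000027954, chromosome 3, 89271733 to 89281142), a ligand known from endothelium and epithelium, had 9.37 and 8.35 normalized counts in control and 45.0, 37.9 and 22.4 in *Hif1aCKO* neurons. All *Hif1aCKO* libraries lay above both controls, and the log2 fold change of 1.97 (standard error 0.79, unadjusted p = 0.0370, adjusted p = 0.627 in edgeR's quasi-likelihood test) was the highest among members tested. With any 1 library dropped it was 1.75 to 2.21. The mean count of *Efna1* is under the threshold of 50, so it could not have been called. The same holds for other members, among them *Ephb1*, *Sema3c* and *Slit1*. Without that threshold 0 members were called in the edgeR test.

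The other ephrin-A ligands, *Efna2*, *Efna3* and *Efna4*, had log2 fold changes of 0.24, -0.33 and 0.16, each smaller than its standard error. Of the ephrin-B ligands, which span the membrane and can signal backwards into their own cell, *Efnb2* was the highest. It had 246 and 220 normalized counts in control and 207, 508 and 303 in *Hif1aCKO* neurons, with the high value in replicate 4 and overlapping groups (log2 fold change 0.54, standard error 0.37). X-linked *Efnb1* had 44.8 and 86.3 against 57.9, 35.9 and 75.9, also with overlap, and *Efnb3* differed by -0.18 on the log2 scale (standard error 0.44).

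Among EphA receptors, which bind ephrin-A ligands, *Epha5* (ENSMUSG00000029245, chromosome 5, 84054761 to 84417382) was lower in every *Hif1aCKO* library. Normalized counts were 536 and 786 in control and 445, 366 and 493 in *Hif1aCKO* libraries. The log2 fold change was -0.60 (standard error 0.23, unadjusted p = 0.0304, adjusted p = 0.621 in edgeR's quasi-likelihood test), and it was -0.31 without control replicate 6. Set against its ligand, *Efna5* had 3.99 and 3.30 counts for each count of *Epha5* in control and 6.11, 5.17 and 5.27 in *Hif1aCKO* neurons. This ratio reuses the *Epha5* counts above and was not tested. *Epha7*, the highest EphA receptor at 18.5 ± 9.67 TPM, varied widely between *Hif1aCKO* libraries. Its normalized counts were 608 and 527 in control and 231, 920 and 323 in *Hif1aCKO* neurons, which enclose both control values. *Epha3* reached 318 in *Hif1aCKO* replicate 3 and 244 in control replicate 6, and lay between 78.8 and 124 in the other libraries.

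EphB receptors bind ephrin-B ligands and were low, with *Ephb2* the highest at 5.28 ± 1.40 TPM. *Ephb2* had 175 and 145 normalized counts in control and 145, 244 and 246 in *Hif1aCKO* neurons, with overlap (log2 fold change 0.41, standard error 0.33). *Ephb1* had 18.7 and 13.9 against 26.8, 56.9 and 40.9, without overlap, and a log2 fold change of 1.34 (standard error 0.70, unadjusted p = 0.0910, adjusted p = 0.699 in edgeR's quasi-likelihood test). By role, 4 of 5 ephrin-A and 1 of 3 ephrin-B ligands had a higher mean in *Hif1aCKO* neurons, as did 3 of 7 EphA and 3 of 4 EphB receptors that were tested.

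Slits and netrins gave no member with an unadjusted p-value under 0.05. *Slit3* had 1038.5 and 962 normalized counts in control and 1093, 1475 and 990 in *Hif1aCKO* neurons, and *Slit2* lay between 724 and 1472 in all libraries, with log2 fold changes of 0.25 (standard error 0.20) and 0.14 (standard error 0.28). *Slit1*, at 1.12 TPM the lowest slit, was lower in all *Hif1aCKO* libraries, with 24 and 34 counts against 6, 16 and 17 (log2 fold change -1.11, standard error 0.83). The receptor *Robo2* had 233 and 71.4 normalized counts in control and 89.0, 68.9 and 140.1 in *Hif1aCKO* libraries. The log2 fold change was -0.61 (standard error 0.54) and became 0.47 without control replicate 5, so the direction rested on that library. *Robo1* differed by -0.41 on the log2 scale (standard error 0.62).

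Of the netrins, *Ntn3* had the highest level, 1.26 TPM, and 18 and 31 counts in control and 20, 1 and 23 in *Hif1aCKO* libraries. *Ntn1*, the classical attractant, had 1 and 1 counts in control and 11, 6 and 0 in *Hif1aCKO* libraries and was not tested. *Neo1* was steady, with 403 and 311 normalized counts in control and 335, 396 and 412 in *Hif1aCKO* neurons (log2 fold change 0.094, standard error 0.23). *Dcc*, the attractive netrin receptor, had 70.8 and 153 against 55.8, 70.9 and 69.1, or -0.78 on the log2 scale (standard error 0.45). The repulsive receptor *Unc5a* had 45.8 and 42.7 against 55.8, 80.9 and 64.2 without overlap (log2 fold change 0.60, standard error 0.47). *Unc5b*, *Unc5c* and *Unc5d* had log2 fold changes of -0.53, -0.44 and -0.47, with standard errors of 0.75, 0.57 and 1.51.

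Partners that act beside or below these receptors were read from a list of 60 genes, all of which are in the table and 54 of which were tested. In edgeR's quasi-likelihood test 0 were called, and 7 (13.0%) had an unadjusted p-value under 0.05, 1 higher and 6 lower in *Hif1aCKO* neurons. The shares over all genes were 7.67%, with 3.83% higher and 3.85% lower. The median log2 fold change was 0.080, with 30 genes higher and 24 lower. DESeq2 called 1 partner, *Flrt1*, an adhesion protein that binds Unc5 receptors, with an adjusted p-value of 0.0473, where it called 0.388% of all genes. *Flrt1* had 92.7 and 122 normalized counts in control and 25.7, 9.99 and 23.4 in *Hif1aCKO* libraries. Its log2 fold change was -2.44, with a standard error of 0.56 (adjusted p = 0.586 in edgeR's quasi-likelihood test). It is also in the study's own list of differentially expressed genes, which came from these libraries, so the call is not independent of that list.

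The other 6 partners at an unadjusted p-value under 0.05 were *Nrcam*, *Dpysl2*, *Dpysl3*, *Ptprd*, *Cntn1* and *Rac1*. Related partners such as *L1cam*, *Cntn2*, *Crmp1* and *Dpysl4* overlapped between genotypes, and *Dpysl5* was higher in every *Hif1aCKO* library. *Nrcam*, an L1-family adhesion protein that joins neuropilin complexes, had 806 and 908 normalized counts in control and 535, 518 and 632 in *Hif1aCKO* neurons (log2 fold change -0.61, standard error 0.18). *Dpysl2*, the cytoplasmic mediator of *Sema3a* signals also known as CRMP2, was the most abundant of these, with 38910 and 41758 against 38046, 25759 and 29059. Its log2 fold change was -0.38 (standard error 0.15), and that of *Dpysl3* -0.40 (standard error 0.14). *Ptprd* and *Cntn1* had log2 fold changes of -0.93 (standard error 0.30) and -1.31 (standard error 0.54). *Rac1*, a GTPase that reshapes the growth cone, was the partner at an unadjusted p-value under 0.05 that was higher, with 846 and 777 against 1143, 1062.5 and 1331 normalized counts (log2 fold change 0.54, standard error 0.17).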

How the data were processed

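RNA was sequenced from libraries of 100 sorted sympathetic neurons. Reads were trimmed by the authors (cutadapt, Trimmomatic), cleared of ribosomal reads (Bowtie, SortMeRNA), mapped to GRCm38 (STAR) and, where they mapped to a single place, counted per gene (Rsubread). The deposited values are raw counts per gene, without normalization. Symbols, positions and exon lengths came from GENCODE release M21 on the same assembly, and the study names release M8.

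Genotypes were compared over all 5 libraries by the quasi-likelihood test of edgeR (version 4.0.16; R version 4.3.3) after filterByExpr and TMM scaling. Benjamini-Hochberg adjustment covered the 15032 genes kept. The thresholds are those the study gives for DESeq2. Normalized counts were divided by effective library size and scaled to its mean. The fit was tested on data simulated with the means and library sizes of these libraries. The simulated spread between libraries followed the level of a gene alone, so genes of like level did not differ in spread. It called 118 of 184 tested genes changed 4-fold and 55 of 194 changed 2-fold, and 1 unchanged gene each time. Most changes of 2-fold would thus be missed in such data. Alternatives were 2 other scalings (RLE and upper quartile), DESeq2 (version 1.42.0), limma-voom (version 3.58.1), other filters and thresholds, another exon length and leaving out each library.

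The members, the lists of partners and markers and the tests were chosen with earlier results of these data known. Genes were named by rule: *Hif1a*, *Isl1* and *Prph*, the 10 members with the smallest p-value, the highest member of each role, *Sema3a* and its receptors, and X-linked members. Other genes named were chosen after their values were seen. For a single value, 2 libraries against 3 allow no exact permutation p-value below 0.1. Total counts of 8254211 to 9700887 limit precision for genes of few counts.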

Additional observations from a re-analysis of the deposited data

How the results depend on the processing

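Over all genes, DESeq2 called 60 genes in place of 0, and dropping a single library gave 0 to 4 called genes, the 4 without control replicate 5, where control replicate 6 was assumed to vary like the *Hif1aCKO* libraries. No guidance member was called under any alternative run, and among partners DESeq2 called 1. The median log2 fold change over members was -0.14, and -0.032 to 0.15 with a library dropped. Dropping a library also changed the sign of log2 fold changes of *Efna5* (-0.11 to 0.17), *Efnb1* (-0.61 to 0.33), *Epha7* (-1.04 to 0.13), *Neo1* (-0.087 to 0.29), *Robo2* (-1.24 to 0.47) and *Prph* (-0.040 to 0.37); the cause was not tested. The other tested members that the naming rule picks kept their direction there; *Sema3a* was not tested. With the longest transcript as length, levels of 9 of 62 members moved by more than 1 SD. No paired analysis was possible because the labels do not name the litter of a library. The groups share only replicate number 5, and no source used here says that a shared number marks a pair. Of the 18 members under 1 TPM, 14 had 0 counts in some library, so differences in them are poorly resolved; what part depth or the 100 cells per library had in this was not tested.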
